A study of Mus musculus with 47 samples.

Results

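Midn, Trib1, Ier2, Ier5, Btg2, Klf4, Klf10 and Maff are rapid-response genes, whose transcripts appear soon after a stimulus. These 8 of the 45706 genes in the count table were followed through all 47 libraries. They were chosen by name because some of them were higher after PICK1i in prefrontal cortex (PFC), so their values in that comparison are given as a description with no test.

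The series profiled polyadenylated RNA of PFC and hippocampus from mice with diet-induced obesity. The groups were saline, PICK1i (an inhibitor of the PDZ protein PICK1) and PSD-95i (an inhibitor of the postsynaptic scaffold PSD-95), with 8 libraries each in PFC and 7, 8 and 8 in hippocampus. The labels' protocol names mPD5 at 56 mg/kg and UCCB01-147 at 25 mg/kg, matched here to PICK1i and PSD-95i from general knowledge, given once a day over 5 days with tissue taken 2 hours after the last injection. All groups, saline included, are described as obese mice that received injections on each day. The same protocol speaks of 6 saline mice and of whole hypothalamus, so how far it describes these samples is uncertain. Whether every library stands for its own animal is not given in the labels, so p-values measure only the spread between these samples, which may be technical.

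Rapid-response genes are transcribed from factors already present in the cell, such as CREB and serum response factor, and need no new protein to start. Their transcripts are short-lived, in part through AU-rich elements in the 3′ untranslated region. In neurons they follow synaptic activity and calcium entry, and several of them also respond to growth factors, stress or hormones in glia and blood vessels.

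In these data the 8 genes differed in the direction of their difference between the tissues. In PFC all 8 were on average higher after PICK1i than after saline, by 1.24-fold (Ier5) to 1.80-fold (Ier2), and only Midn and Trib1 had groups that did not overlap (PICK1i was above saline in this way for 0.141% of all genes). This is the comparison by which the genes were picked, and nothing is read from that count. After PSD-95i none passed the test in either tissue, and in hippocampus none passed it after PICK1i. Between the tissues, in PSD-95i libraries, Midn, Trib1, Ier2, Ier5 and Klf4 were lower in hippocampus than in PFC and Btg2 was higher, in a comparison where 45% of all genes passed.

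Promoter sequence was available for 5 of the 8 genes, in 8 windows of 300 bases that run from 250 bases before an annotated start to 50 after it (RefSeq, GRCm38.p6). Trib1, Ier2 and Klf10 had no window. The windows below are shown because the promoters hold different elements although the genes were picked as 1 group. Capitals mark, on either strand, the cAMP response element TGACGTCA, its short form TGACG (part of the full element) and the EGR site GCGNGGGCG.
Btg2 promoter, chr1:134079106-134079405, minus strand: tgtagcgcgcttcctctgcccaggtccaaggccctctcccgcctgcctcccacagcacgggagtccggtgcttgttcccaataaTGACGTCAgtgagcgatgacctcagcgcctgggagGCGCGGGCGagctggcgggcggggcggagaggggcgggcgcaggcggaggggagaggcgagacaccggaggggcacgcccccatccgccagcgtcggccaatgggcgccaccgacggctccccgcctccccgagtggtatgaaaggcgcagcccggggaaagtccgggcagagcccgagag
Maff promoter, chr15:79347270-79347569, plus strand: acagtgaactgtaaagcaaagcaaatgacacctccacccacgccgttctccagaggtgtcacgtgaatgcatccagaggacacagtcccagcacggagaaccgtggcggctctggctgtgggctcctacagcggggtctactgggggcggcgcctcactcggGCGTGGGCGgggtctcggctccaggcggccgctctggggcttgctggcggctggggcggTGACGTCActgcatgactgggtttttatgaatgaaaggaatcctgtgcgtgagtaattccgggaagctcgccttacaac
Klf4 promoter, chr4:55532426-55532725, minus strand: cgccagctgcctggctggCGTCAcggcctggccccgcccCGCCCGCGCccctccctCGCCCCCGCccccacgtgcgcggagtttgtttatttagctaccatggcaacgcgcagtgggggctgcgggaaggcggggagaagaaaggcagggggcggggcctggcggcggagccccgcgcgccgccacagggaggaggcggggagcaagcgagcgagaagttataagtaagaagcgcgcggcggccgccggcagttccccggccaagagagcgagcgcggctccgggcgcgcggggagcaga
Midn promoter, chr10:80148022-80148321, plus strand: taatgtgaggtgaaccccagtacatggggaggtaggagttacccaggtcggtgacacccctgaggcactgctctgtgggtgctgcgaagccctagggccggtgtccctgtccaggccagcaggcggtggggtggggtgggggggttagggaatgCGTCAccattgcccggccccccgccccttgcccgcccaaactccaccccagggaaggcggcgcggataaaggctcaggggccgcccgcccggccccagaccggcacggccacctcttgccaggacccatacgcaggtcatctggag
Ier5 promoter, chr1:155099587-155099886, minus strand: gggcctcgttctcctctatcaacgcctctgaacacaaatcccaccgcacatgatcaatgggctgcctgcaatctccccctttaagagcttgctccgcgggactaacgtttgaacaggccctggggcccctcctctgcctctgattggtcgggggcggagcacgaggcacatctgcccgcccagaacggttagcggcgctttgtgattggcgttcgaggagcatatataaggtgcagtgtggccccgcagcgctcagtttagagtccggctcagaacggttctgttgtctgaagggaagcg

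Btg2 and Maff held the full cAMP response element, beginning 166 and 29 bases before the annotated start that lies within the printed window. Maff has other annotated starts, whose windows are not printed and held neither the full element nor an EGR site. One of them held the short form, 122 bases before its own start. The full element was in 2.89% of the 14399 windows of tested genes. Klf4 and Midn held the short form, 232 and 96 bases before the start, which was in 29.5% of these windows. For Midn this was the printed window only. The shares are per window, so a gene with several windows has more places for a match. EGR sites, the letters bound by the zinc fingers of the EGR factors, stood in Btg2 (1), Maff (1) and Klf4 (2), against 10.4% of windows with at least 1. The Ier5 window held none of these letters. The CCAAT box (CCAAT or its complement), found in 37.1% of windows, stood at 2 places each in the Ier5 and Btg2 windows and at 4 in a second Midn window that is not printed. No window of these genes held the AP-1 site TGANTCA, the CArG box of serum response factor or TATAAA, which were in 5.01%, 1.33% and 7.32% of windows. These matches are letters in a window and were not tied to binding here.

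The 3′ untranslated regions were searched for TATTTAT, an extended form of the ATTTA core of AU-rich elements. Midn, Btg2 and Klf10 had 1 copy in their main transcript and Maff had 2. In all, 4 of the 8 genes had it, against 29% of 12750 protein-coding genes tested. A longer region has more places for a match. These 4 regions had 1217 to 2199 bp, against a median of 1137 bp over the same protein-coding genes. Trib1 and Ier5, with no copy, had 2398 and 2143 bp. The sites are printed because they are the shared letters of these 4 transcripts, with TATTTAT in capitals, from the GENCODE transcripts of GRCm38.
Midn site from base 812 after the stop codon: tgggggacTATTTATagatttcatttttc
Btg2 site from base 103 after the stop codon: tgaagagcTATTTATacatgttttttttt
Klf10 site from base 968 after the stop codon: tgtcttttTATTTATaggagtttttcagg
Maff site from base 934 after the stop codon: cacactctTATTTATtgcacgaatctaag
Maff site from base 1133 after the stop codon: ccagagttTATTTATtttctgacttcaag

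Trib1, Ier2, Ier5 and Klf4 had no copy of TATTTAT. The shorter ATTTA stood in Btg2 (5), Klf10 (4), Maff (4), Midn (2), Ier5 (2) and Klf4 (1), and in neither Trib1 nor Ier2. Its share over other genes was not taken. The genes are short: their median span was 7037 bp, against 26471.5 bp over the same protein-coding genes. Ier2 and Ier5 are single exons and Btg2 has 2, where 8.75% of the genes have 1 or 2. On GRCm38, Btg2 lies on chromosome 1 at 134075170 to 134079120, Ier5 on chromosome 1 at 155096361 to 155099636, Klf4 on chromosome 4 at 55527143 to 55532466 and Ier2 on chromosome 8 at 84661331 to 84662852. Midn lies on chromosome 10 at 80148272 to 80158368. Klf10 (38291463 to 38300706), Trib1 (59648350 to 59657099) and Maff (79346621 to 79359076) all lie on chromosome 15.

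Total counts ran from 5378170 to 13139400 per library. PFC libraries had scores of cortical markers (mean log2 CPM, where CPM are counts scaled to a common library size) from 5.75 to 6.57, and all but 1 hippocampal library had scores of hippocampal markers from 4.00 to 6.61, against at most 2.71 in PFC. The exception is the library labelled hippocampus PICK1i replicate 7, whose hippocampal score was 2.86 and whose thalamic score was 7.42, so its markers go against its label. In all, 5 libraries had a striatal, thalamic or olfactory bulb score above 5: PFC saline replicate 1, PFC PICK1i replicate 6, hippocampus saline replicate 1, and hippocampus PICK1i replicates 2 and 7. Several results that rest on them, but not all, are given with and without these 5. Fewer cells of a type and less RNA per cell cannot be told apart in these pieces of tissue.

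Levels between genes were compared per transcript length, as TPM (counts divided by transcript length and scaled to a common total). In PFC saline libraries Ier5 was highest at 84.6 ± 10.4 TPM (SD, n = 8), followed by Midn at 39.9 ± 5.30 and Klf10 at 24.8 ± 3.23. Trib1 (11.6 ± 1.10), Ier2 (9.71 ± 1.31), Btg2 (8.10 ± 2.65) and Klf4 (7.13 ± 1.80) followed, and the range of mean ± SD of each overlapped that of its neighbour in this order. Maff was lowest at 1.45 ± 0.653 TPM. In hippocampus saline libraries (n = 7) Ier5 at 37.1 ± 8.10 and Midn at 28.9 ± 4.29 TPM had overlapping ranges of mean ± SD. Btg2 was the fourth there at 13.4 ± 3.35 TPM, with a range of mean ± SD above those of Ier2 (6.89 ± 2.03) and Trib1 (6.76 ± 1.03), whereas in PFC it was the sixth.

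**Figure D1:**
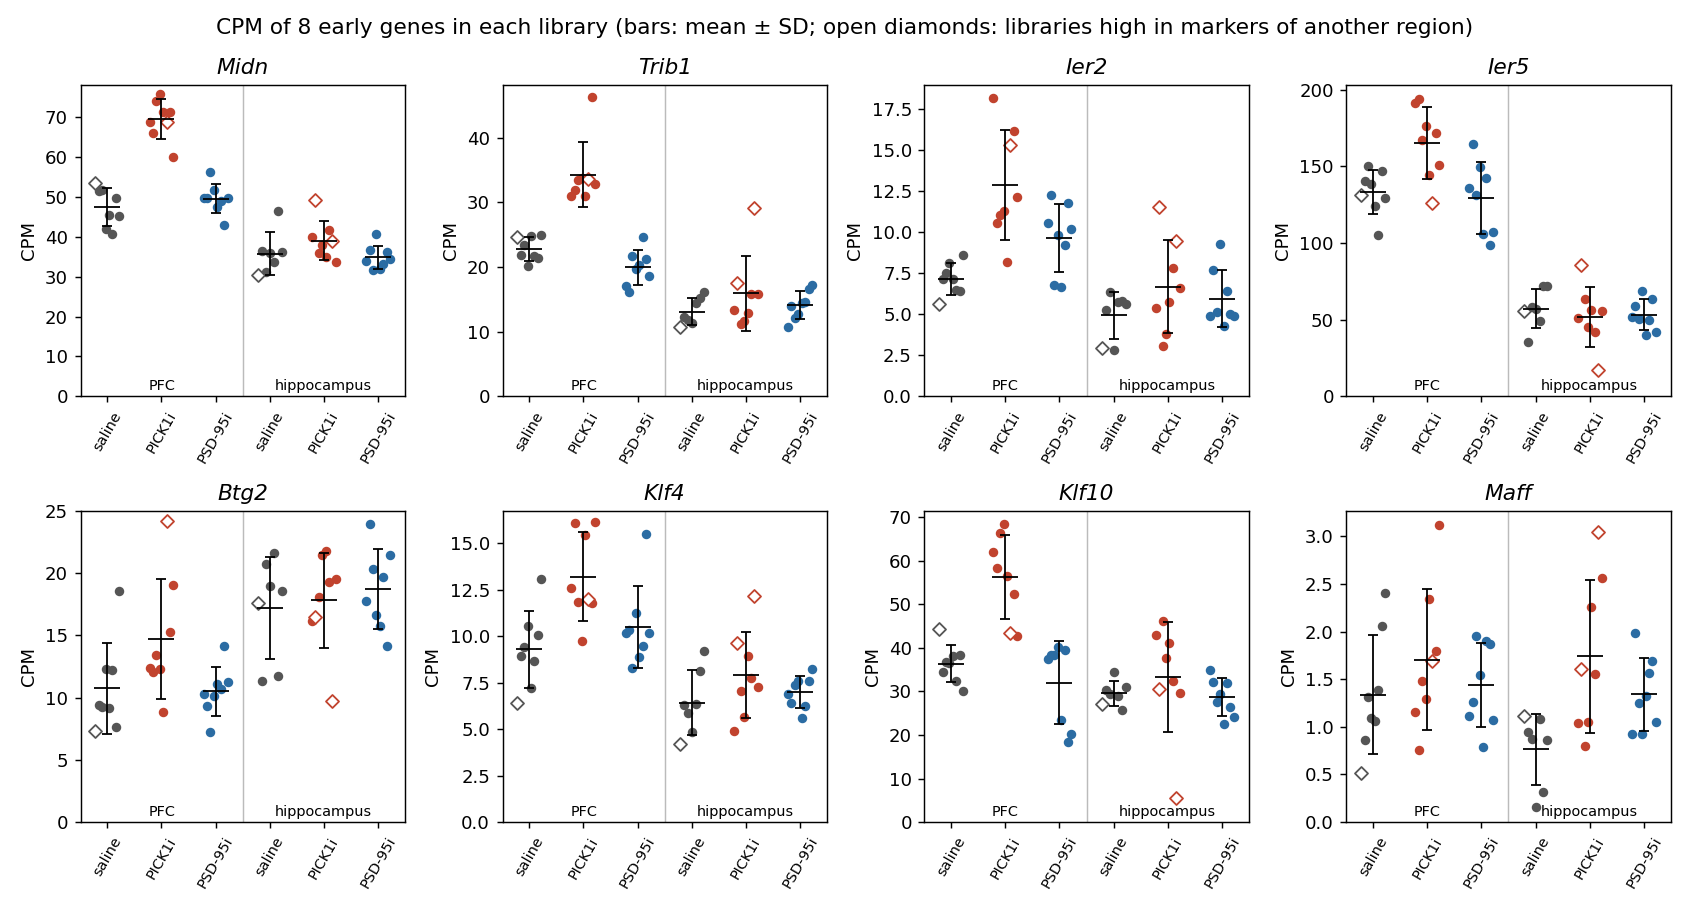
CPM of each gene (vertical axes, linear from 0) in every library of the 6 groups, points coloured by treatment, with bars for the mean ± SD and open diamonds for the 5 libraries high in markers of another region. The PICK1i points of Midn and Trib1 in PFC lie above every saline and PSD-95i point, while in hippocampus the 3 groups of each gene overlap.

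Midn, Trib1 and Btg2 act on the stability of proteins or RNA. Midn encodes midnolin, which carries nuclear proteins, many of them products of early genes, to the proteasome for destruction without ubiquitin. In PFC its level was 40.8, 47.5 and 53.5 CPM (lowest, median, highest) with saline and 59.9, 70.1 and 75.7 CPM with PICK1i. PSD-95i libraries had 43, 49.7 and 56.2 CPM. Every PICK1i library lay above every library of the other 2 PFC groups. The log2 difference from saline was 0.55 (SE 0.062) for PICK1i, a ratio of 1.46. In hippocampus, levels were 30.4, 35.8 and 46.5 CPM with saline, 33.7, 38.3 and 49.1 CPM with PICK1i, and 31.7, 34.2 and 40.6 CPM with PSD-95i, and these groups overlapped. Of the 7 transcripts listed for Midn, the 2 most counted took 54.1% ± 3.48 and 33.5% ± 3.55 of its count in PFC saline and 54.3% ± 2.78 and 35.2% ± 2.13 in PFC PICK1i (SD, n = 8 each). Among the less counted transcripts, ENSMUST00000124179 was at 4.11% ± 1.03 with saline and 2.71% ± 1.06 with PICK1i, and ENSMUST00000146516 at 0.476% ± 0.259 and 0.826% ± 0.251. PFC PSD-95i libraries, at 2.57% ± 0.863 and 0.957% ± 0.351, lay on the same side of saline, so these shares were not particular to PICK1i. Hippocampus saline libraries had 2.99% and 0.969%. ENSMUST00000146516 had few counts, 15 summed over the PFC saline libraries and 33.1 over PFC PICK1i.

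Trib1 encodes a pseudokinase that brings the COP1 ubiquitin ligase to C/EBP transcription factors. Its PFC level was 20.2, 22.6 and 25.0 CPM with saline, 31, 33.2 and 46.3 CPM with PICK1i, and 16.1, 20.01 and 24.7 CPM with PSD-95i. PICK1i libraries again lay above all others of the tissue. The log2 difference from saline was 0.58 (SE 0.084) after PICK1i. PSD-95i libraries tended lower than saline: 4 of 8 were below every saline library, and the log2 difference of -0.21 (95% interval -0.38 to -0.03) did not pass (edgeR adjusted p = 0.701). In hippocampus Trib1 was at 10.7, 12.2 and 16.1 CPM with saline and at 11.2, 14.5 and 29.1 CPM with PICK1i. The highest of these is the library with thalamic markers. Hippocampal PSD-95i libraries were at 10.8, 14.2 and 17.2 CPM, inside the range of the PICK1i group apart from 1 library just below it.

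Btg2 restrains cell division and recruits the CCR4-NOT deadenylase, which shortens the tails of mRNAs. In PFC it was at 7.35, 9.34 and 18.6 CPM with saline, 8.89, 12.9 and 24.2 CPM with PICK1i, and 7.23, 10.5 and 14.2 CPM with PSD-95i. Only 2 of 8 PICK1i libraries were above every saline library. The highest PICK1i value came from replicate 6, the library with olfactory bulb markers, and the log2 difference from saline of 0.45 (SE 0.19) was 0.24 (SE 0.17) without the 5 libraries. Hippocampal values were 11.4, 18.6 and 21.6 CPM with saline, 9.74, 18.7 and 21.7 CPM with PICK1i, and 14.2, 18.8 and 24 CPM with PSD-95i. The treatment groups of hippocampus overlapped over nearly their whole range.

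Ier2 and Ier5 are related nuclear proteins; Ier5 binds the phosphatase PP2A and the heat shock factor HSF1. Ier2 had the highest PICK1i ratio of the 8 genes in PFC, with 5.59, 7.13 and 8.60 CPM after saline and 8.19, 11.7 and 18.2 CPM after PICK1i. Of 8 PICK1i libraries, 7 were above every saline library, and the log2 difference was 0.85 (SE 0.15). The highest value came from PICK1i replicate 1, whose mitochondrial share of counts was 16.7%, against 8.41% to 11.4% in saline and at most 11.6% in the other PICK1i libraries. Without that library the difference was 0.76, and Ier2 had r = 0.47 with the mitochondrial share within groups over 47 libraries. The part of RNA quality in this value was not tested. PSD-95i libraries lay between, at 6.65, 9.97 and 12.2 CPM, with 6 of 8 above every saline library. Hippocampal levels were 2.83, 5.59 and 6.37 CPM with saline, 3.06, 6.15 and 11.5 CPM with PICK1i, and 4.28, 5.06 and 9.26 CPM with PSD-95i. Counts of Ier2 ran from 18 to 87 in hippocampal libraries. Its hippocampal values had a wider spread (SD of log2 CPM 0.37 to 0.61) than those of Midn (0.12 to 0.20). The part of low counts in this spread was not tested.

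Ier5 was at 105, 135 and 150.0 CPM with saline in PFC, 126, 169 and 194 CPM with PICK1i, and 98.5, 134 and 165 CPM with PSD-95i. Here 6 of 8 PICK1i libraries were above every saline library, at a log2 difference of 0.31 (SE 0.10), the smallest of the 8. In hippocampus it was at 35.6, 57.3 and 72.3 CPM with saline, 17.2, 53.3 and 85.8 CPM with PICK1i, and 39.8, 51.1 and 68.9 CPM with PSD-95i. The lowest and the highest hippocampal values belong to PICK1i replicates 7 and 2, both among the 5 libraries that stand apart.

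Klf4, Klf10 and Maff encode transcription factors. Klf4 is a zinc finger factor of blood vessel walls, astrocytes and stem cells. Its PFC values were 6.42, 9.18 and 13.1 CPM with saline, 9.73, 12.3 and 16.2 CPM with PICK1i, and 8.28, 10.2 and 15.5 CPM with PSD-95i. Only 3 of 8 PICK1i libraries were above every saline library, at a log2 difference of 0.51 (SE 0.13). In hippocampus Klf4 was at 4.20, 6.32 and 9.21 CPM with saline, 4.92, 7.51 and 12.2 CPM with PICK1i, and 5.60, 7.15 and 8.24 CPM with PSD-95i, with overlap throughout.

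Klf10, a zinc finger factor induced by TGF-beta, was at 30.1, 36.6 and 44.4 CPM with saline and 42.6, 57.4 and 68.3 CPM with PICK1i in PFC. The log2 difference was 0.63 (SE 0.15), and 6 of 8 PICK1i libraries were above every saline library. With PSD-95i the PFC values fell into 2 clusters: replicates 5, 7 and 8 were at 23.5, 18.3 and 20.3 CPM, and the other 5 at 37.5 to 40.2 CPM. The same 3 libraries had the lowest Ier5 of their group, at 106, 98.5 and 107 CPM. Midn showed no such gap, with 47.3, 43 and 49.7 CPM in these 3 libraries. In hippocampus Klf10 was at 25.8, 29.3 and 34.4 CPM with saline, 5.63, 35 and 46.2 CPM with PICK1i, and 22.4, 28.5 and 35 CPM with PSD-95i.

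Maff is a small Maf protein without an activation domain that pairs with CNC factors such as NRF2. It was rare, with 1 to 34 counts per library. Its PFC values were 0.518, 1.203 and 2.41 CPM with saline, 0.755, 1.58 and 3.12 CPM with PICK1i, and 0.791, 1.40 and 1.96 CPM with PSD-95i. The log2 difference after PICK1i was 0.33 (SE 0.28), smaller than 2 SE. In hippocampus it was at 0.157, 0.874 and 1.11 CPM with saline, 0.798, 1.58 and 3.04 CPM with PICK1i, and 0.926, 1.29 and 1.99 CPM with PSD-95i. Of 8 libraries, 5 were above every saline library in each inhibitor group.

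In PFC after PICK1i, the contrast by which the genes were picked, 3 of the 8 (Midn, Trib1 and Ier2) had a Benjamini-Hochberg adjusted p under 0.05 in edgeR's quasi-likelihood test, where 0.201% of 14911 genes did, and nothing is read from this count. Groups that did not overlap, with PICK1i higher, were found for Midn and Trib1 and for 0.141% of all genes. Klf10 passed in some other fits: without the 5 libraries (log2 difference 0.72), with DESeq2, with the replicate block, with only the 2 groups compared, and without PFC PSD-95i replicate 7. Relatives of the 8 genes were mostly level in this comparison. Ier5l, a paralog of Ier5, was the 1 of 3 tested Ier relatives that passed, at 26.6 ± 2.70 CPM with saline and 38.2 ± 6.01 CPM with PICK1i (n = 8 each). None of 5 Trib and COP1 partners, 11 Btg, Tob and CCR4-NOT genes, 13 Klf genes or 10 Maf and CNC partners passed, with median log2 differences of 0.03, -0.004, 0.02 and 0.01, against 0.005 over all genes. Among other rapid-response genes, 13 of 33 tested passed with higher values, led by Nr4a1, Arc and Junb, at log2 differences of 0.95, 1.55 and 0.92. This list was chosen with earlier results of these data known, and nothing is read from its count. None of 15 late-response genes passed, with a median of 0.05. None of the cell type markers passed here. All 5 red blood cell markers had positive log2 differences (median 0.29) and all 10 oligodendrocyte markers negative ones (median -0.20). Positive differences were also seen in all 4 of the listed olfactory bulb markers that were tested (median 2.19). The last rests on PICK1i replicate 6: the mean olfactory bulb score was 0.825 with PICK1i and 0.241 with saline, and 0.127 and 0.176 without the libraries that stand apart. Red blood cell scores ran from 3.67 to 5.11 with saline and from 3.83 to 5.31 with PICK1i. The part of these markers in the values of the 8 genes was not tested.

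PSD-95i in PFC was compared with the same saline libraries that the choice of genes used. No member passed, and none of 14911 genes did (0% by edgeR). At an unadjusted p under 0.05 there were 946 genes (6.34%), and DESeq2 called 2 and limma voom 0. Log2 differences ran from -0.21 (Trib1) to 0.43 (Ier2), with 4 of 8 above 0 (48.9% of all genes) and a median of 0.01, against -0.003 over all genes. For Ier2 the 95% interval was 0.12 to 0.73 and the edgeR adjusted p was 0.651. For Midn the 95% interval was -0.07 to 0.18. Btg2 was less certain, with an interval from -0.42 to 0.37.

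Set directly against PICK1i in PFC, PSD-95i estimates were lower for all 8 genes, where 46.1% of all genes were above 0. These values share the PICK1i libraries with the choice of genes and are a description. Midn, Trib1 and Klf10 differed by -0.49 (SE 0.062), -0.78 (SE 0.085) and -0.82 (SE 0.15) on the log2 scale, and in each of them every PSD-95i library was below every PICK1i library, as for 0.174% of all genes. These 3 also had an edgeR adjusted p under 0.05, as did 0.335% of genes, and nothing is read from that count. The other 5 differed by -0.25 (Maff) to -0.48 (Btg2), with overlap. Doses of the 2 compounds, as the protocol names them, were not matched, so the values stand side by side as dosed.

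**Figure D2:**
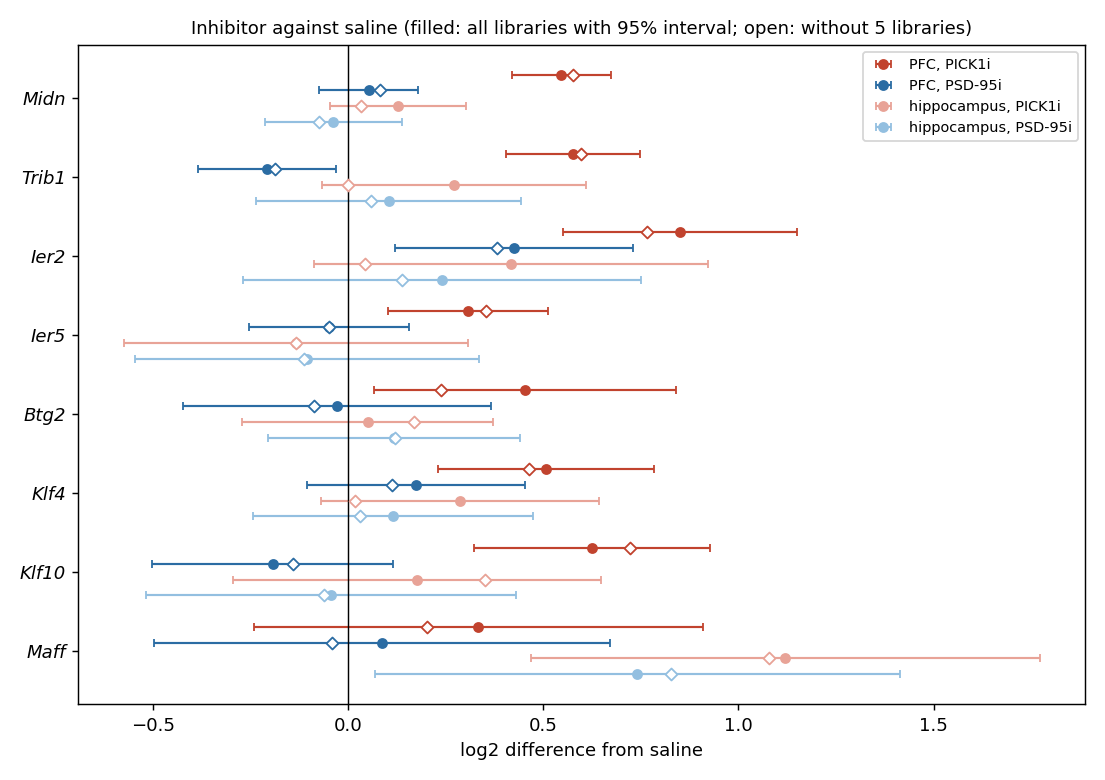
Log2 difference from saline (horizontal axis) of each gene after each inhibitor in each tissue, with 95% intervals from edgeR over all libraries (filled) and the estimate without the 5 libraries high in markers of another region (open diamonds). PFC PICK1i estimates lie between 0.31 and 0.85, and Maff in hippocampus after PICK1i stands farthest right at 1.12.

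In hippocampus the PICK1i comparison used no library of the choice of genes. None of the 8 passed, nor did any of 15051 genes (0% by edgeR, and 0 with DESeq2 and limma voom), with 580 (3.85%) at an unadjusted p under 0.05. The largest difference was that of Maff, with a log2 difference of 1.12 (SE 0.32, 95% interval 0.47 to 1.77) and an edgeR adjusted p of 0.956, which ranged from 0.838 to 0.99997 over the alternatives. Without the 5 libraries it was 1.08. The other 7 ran from -0.13 (Ier5) to 0.42 (Ier2), with a median of 0.22 over all 8 against 0.003 over all genes.

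Several of these hippocampal estimates moved when the libraries that stand apart were left out. Without the 5 libraries, the PICK1i difference of Trib1 went from 0.27 to 0.00083, of Ier2 from 0.42 to 0.043, of Klf4 from 0.29 to 0.019 and of Midn from 0.13 to 0.033. Klf10, whose lowest value of 5.63 CPM came from replicate 7, went from 0.18 to 0.35 (SE 0.11, edgeR adjusted p = 0.99997 without the 5). Thalamic markers had positive PICK1i differences in hippocampus in 7 of 7 tested (median 1.22), none of which passed, with scores from 2.97 to 7.42 against 2.58 to 4.15 in saline. The mean thalamic score was 3.81 with PICK1i and 3.18 with saline, and 3.32 and 3.17 without the libraries that stand apart.

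After PSD-95i in hippocampus, none of the 8 and none of 15051 genes passed (0% by edgeR, and 0 with DESeq2 and limma voom), with 231 (1.53%) at an unadjusted p under 0.05. Maff again had the largest difference, 0.74 (SE 0.33, 95% interval 0.07 to 1.41), with an edgeR adjusted p of 0.9998. Both hippocampal differences of Maff rest on the same 7 saline libraries, where it had 1 to 10 counts. The other 7 genes ran from -0.11 (Ier5) to 0.24 (Ier2). Between the inhibitors in hippocampus, differences ran from -0.38 (Maff) to 0.07 (Btg2), and none of the 8 or of 15051 genes passed (0% by edgeR, and 0 with DESeq2 and limma voom), with 734 (4.88%) at an unadjusted p under 0.05. The interval for Midn was -0.33 to 0.002. Klf10 was at -0.22, and without the 5 libraries at -0.41 (SE 0.10, 95% interval -0.62 to -0.20, edgeR adjusted p = 0.9998), the widest of the 8 in that fit. No relative passed in any of these 3 hippocampal comparisons.

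The inhibitor effects were also set against each other across tissues. For PSD-95i the difference of effects (hippocampus minus PFC) ran from -0.20 (Ier2) to 0.65 (Maff), and none of the 8 or of 15658 genes passed (0% by edgeR, and 0 with DESeq2 and limma voom), with 428 (2.73%) at an unadjusted p under 0.05. For PICK1i, where the values share PFC libraries with the choice of genes and have no test, 7 of 8 were below 0, where 48.4% of all genes were above 0 and 0.00639% passed. Midn was at -0.42 (SE 0.10), Trib1 at -0.31 (SE 0.18), Ier2 and Ier5 at -0.44 each (SE 0.28 and 0.23), and Klf10 at -0.45 (SE 0.27). Maff was at 0.78 (SE 0.43). Without the 5 libraries Midn was at -0.54, Trib1 at -0.60, Ier2 at -0.72, Ier5 at -0.49, Klf10 at -0.37 and Maff at 0.87. Klf4 went from -0.23 to -0.45 and Btg2 from -0.41 to -0.07 in the same step.

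Differences between the tissues were tested in the PSD-95i libraries, which the choice of genes did not use. Of the 8 genes 6 passed edgeR's test, where 45% of 15658 genes did. The count is above that share, but 8 genes are few, the count was not tested, and nothing is read from it. By direction, 5 were lower in hippocampus (21.9% of all genes) and 1 was higher (23.1%). Their median log2 difference was -0.50, against 0.01 over all genes.

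Ier5 differed most, from 129 ± 23.6 CPM in PFC to 53.2 ± 10.02 CPM in hippocampus (SD, n = 8 each), a log2 difference of -1.29 (SE 0.17, edgeR adjusted p = 1.46e-08). Ier2 went from 9.63 ± 2.06 to 5.94 ± 1.72 CPM (log2 difference -0.72, SE 0.20, edgeR adjusted p = 0.00234). Midn was at 49.5 ± 3.72 and 34.8 ± 2.92 CPM (-0.51, SE 0.073, adjusted p = 1.08e-07 in edgeR). Every hippocampal library was below every PFC library for Ier5, Midn and Klf4, as for 9.64% of all genes. Klf4 was at 10.5 ± 2.21 and 6.99 ± 0.870 CPM (-0.58, SE 0.15, edgeR adjusted p = 0.0017), and Trib1 at 19.9 ± 2.72 and 14.1 ± 2.19 CPM (-0.50, SE 0.13, edgeR adjusted p = 0.00123).

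Btg2 was the exception, at 10.5 ± 1.95 CPM in PFC and 18.7 ± 3.23 CPM in hippocampus. Its log2 difference was 0.83 (SE 0.18, edgeR adjusted p = 0.000129), and every hippocampal library was above every PFC library, as for 9.07% of all genes. Klf10 and Maff did not pass, with intervals of -0.54 to 0.23 and -0.67 to 0.51. The 6 calls held under each alternative tried and without each single library. Saline libraries, used in the choice of genes, gave the same directions as a description, with Ier5 at -1.22, Trib1 at -0.80, Midn at -0.41, Ier2 and Klf4 at -0.52 each and Btg2 at 0.69.

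**Figure D3:**
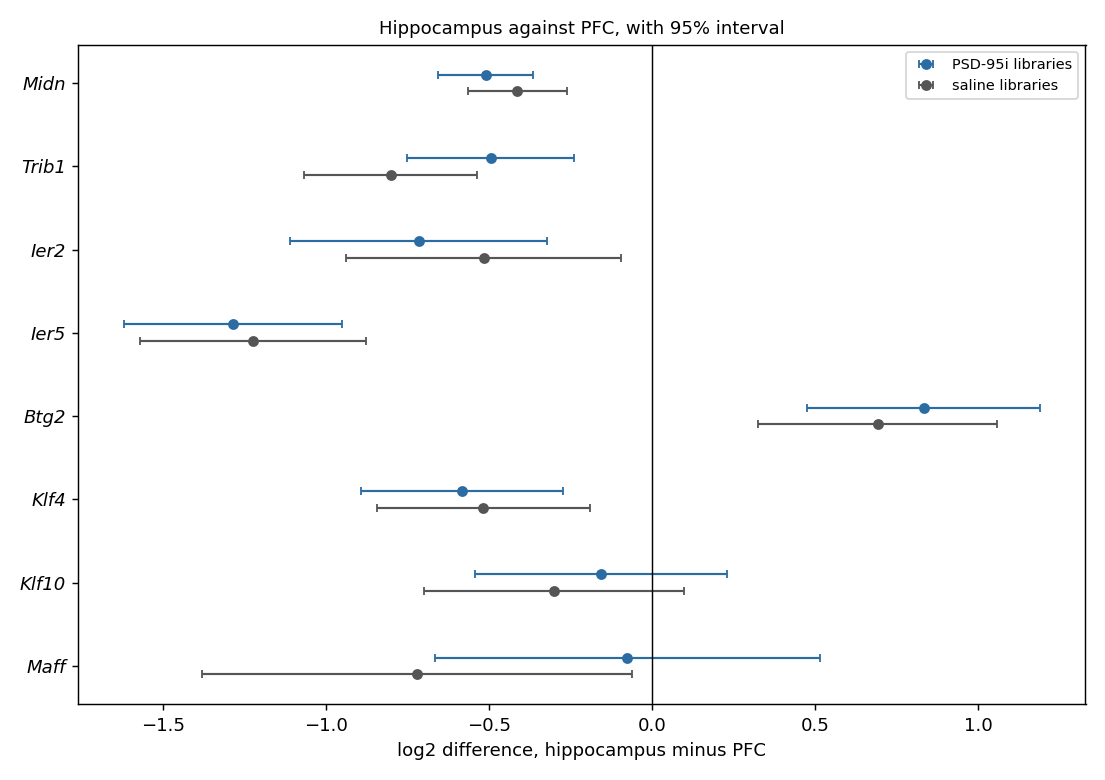
Log2 difference of hippocampus from PFC (horizontal axis) for each gene, with 95% intervals, in PSD-95i libraries (blue) and saline libraries (grey). Btg2 lies right of 0 at 0.83 and 0.69, and Ier5 lies farthest left at -1.29 and -1.22.

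The relatives of each gene were compared between tissues in the same PSD-95i libraries, where 23.1% of all genes were higher and 21.9% lower in hippocampus, and their counts are read against these shares. Of 3 Ier relatives 2 were lower in hippocampus: Ier3 at -1.32 and Ier5l at -0.75. Among 11 Btg, Tob and CCR4-NOT genes 4 were higher and none lower: Btg1 (0.72), Btg3 (0.62), the deadenylase subunit Cnot6l (0.37) and Tob1 (0.21). Klf genes went both ways, with 6 of 13 lower (Klf14 at -3.39, Klf6 at -0.91, Klf2 at -0.67, Klf11 at -0.48, Klf7 at -0.34 and Klf9 at -0.24) and Klf3 (0.83) and Klf13 (0.38) higher. Klf14 was nearly absent in hippocampus, at 0.148 CPM against 1.46 CPM in PFC.

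Of the Maf and CNC group, Maf (-1.02) and Nfe2l1 (-0.28) were lower, and Nfe2l3 (1.00), Mafk (0.55) and Bach2 (0.34) were higher. Trib1 itself was lower in hippocampus, as were its partner ligase Cop1 (listed as Rfwd2, -0.36) and its paralog Trib2 (-0.33). Cebpb (1.25) and Cebpa (0.70) were higher. The complex acts on C/EBP proteins, which were not measured, and a link between these RNA levels was not tested.

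Other rapid-response genes were divided, with 11 of 33 higher in hippocampus and 3 lower (median 0.04). Orphan nuclear receptors Nr4a3 (2.99) and Nr4a2 (1.67) and the AP-1 subunits Jun (1.99) and Fosl2 (1.17) had the widest differences. Phosphatases went both ways, with Dusp4 (1.12) and Dusp5 (0.75) higher and Dusp1 (-0.61) lower. Gadd45g (0.76), Myc (0.73), Errfi1 (0.53), Srf (0.43) and Rhob (0.17) were higher as well, while Egr1 (-1.08) and the clock gene Per1 (-0.55) were lower. Late-response genes had 3 of 15 higher (Ptgs2 at 1.25, Nptx1 at 1.05 and the neurotrophin Bdnf at 1.04) and 6 lower, namely Inhba (-1.26), Homer1 (-0.85), Nptx2 (-0.58), Rgs2 (-0.42), Pcsk1 (-0.42) and Sorcs3 (-0.31), with a median of -0.24.

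Cell type markers moved with the tissue as well. Oligodendrocyte markers were higher in hippocampus in 10 of 10 (median log2 difference 1.25) and microglia markers in 6 of 6 (0.29), while endothelial markers were lower in 6 of 8 (median -0.45) and mural markers in 6 of 7 (-0.65). Within PSD-95i libraries the endothelial score was 4.54 to 5.09 for PFC and 4.13 to 4.53 for hippocampus, and no endothelial or mural marker was at 0 in any library. Neuron markers were lower in 3 of 6 (median -0.31). In the same libraries the mean astrocyte score was 8.02 for PFC and 8.53 for hippocampus. The mean choroid plexus score was -0.397 for PFC and 3.71 for hippocampus. The part of these markers in the tissue differences of the 8 genes was not tested.

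Covariation within groups was taken as the Pearson correlation of log2 CPM after the mean of each group was subtracted. Over 47 libraries, which differ in depth and tissue makeup, the 28 pairs ran from -0.63 to 0.73 with a median of 0.10, and only Ier5 with Klf10 was above 0.5. That pair had r = 0.73 (Spearman 0.50), 0.51 without the 5 libraries, and 0.77 in PFC and 0.28 in hippocampus without them. The PFC value takes in the 3 PSD-95i libraries that were low in both genes. Midn and Btg2 ran opposite to each other, at -0.50 over all libraries, -0.66 in PFC and -0.51 in hippocampus without the 5. Trib1 and Klf10 were at -0.63, and at -0.32 without the 5. Within tissues and without the 5, this pair was at -0.66 in hippocampus and -0.11 in PFC. The library with thalamic markers was highest for Trib1 and lowest for Klf10 in its group.

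**Figure D4:**
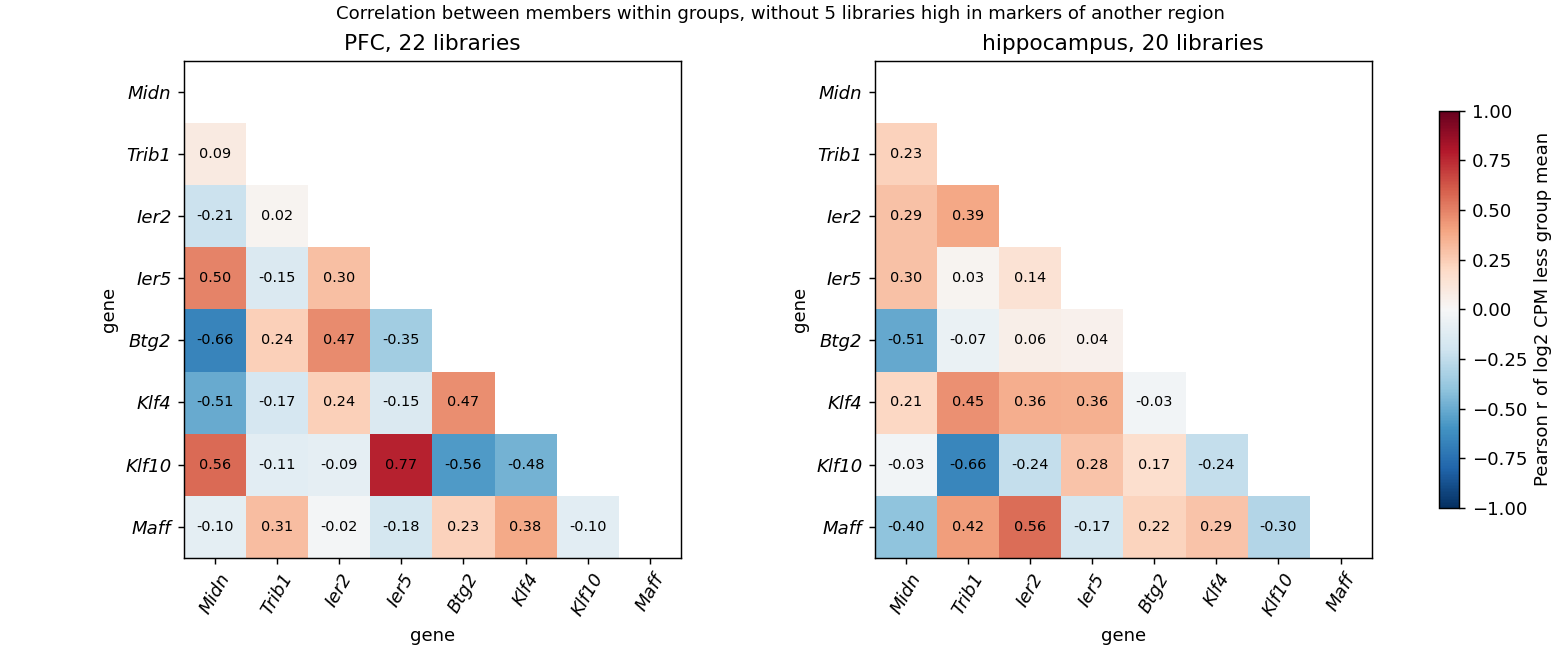
Pearson correlation of log2 CPM less the group mean for each pair of genes, in 22 PFC libraries (left) and 20 hippocampal libraries (right), with the colour scale running from -1 to 1 and the 5 libraries high in markers of another region left out. Ier5 with Klf10 in PFC is the highest value at 0.77, and Midn with Btg2 is negative in both panels.

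The genes most like each member, by the same measure over 47 libraries and all tested genes, differed from member to member. Ier5 was most like Egr4, an early gene of the EGR family (r = 0.81, 0.63 without the 5 libraries). Midn was most like Etv5, an ETS factor (0.69, and 0.66 without the 5), Ier2 like Isca2 (0.72 and 0.68) and Klf4 like Gjb6, a gap junction gene of astrocytes (0.71 and 0.67). Klf10 had the highest values, with Rtn4rl2 and Neurod6 (0.88 each), which were 0.56 and 0.51 without the 5. Trib1 was most like Rhou (0.70 and 0.51), Btg2 like Gabpb2 (0.67 and 0.50) and Maff like Fmo2 (0.64 and 0.61). Each gene's next most like was Igsf9b for Midn, Rnf152 for Trib1, Rpl34 for Ier2, Vipr1 for Ier5, Fam178a for Btg2, Sepn1 for Klf4 and Vkorc1 for Maff, at r of 0.65, 0.70, 0.69, 0.77, 0.65, 0.70 and 0.56. Without the 5 libraries these were 0.60, 0.46, 0.58, 0.39, 0.53, 0.60 and 0.50 in the same order.

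Marker scores followed some genes within groups. Klf4 went with the endothelial score (r = 0.51, 0.45 without the 5 libraries) and the mural score (0.46 and 0.51). Midn went with the cortical marker score (0.40, and 0.64 without the 5). Klf10 had r = -0.79 with the thalamic score, which was -0.24 without the 5, and Ier5 had 0.73 with the cortical score, which was 0.30 without them. With the oligodendrocyte score Ier5 had 0.07, and 0.53 without the 5. Ier2 had -0.53 with the hippocampal score, and -0.46 without the 5. With the mitochondrial share Klf4 had 0.38 and Klf10 -0.37, and the part of RNA quality was not tested. These pairs are examples from 14 marker scores.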

How the data were processed

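Polyadenylated RNA was read as 52-bp pairs from a stranded library kit, per the labels' protocols. Each estimated count, of a gene or a transcript, is as the authors deposited it; the submitters' processing notes name bcl2fastq 2.20.0, STAR and Salmon (the last 2 without a version) and GRCm38. Groups come from the labels. All 47 sample columns of each table were used. Estimated counts were rounded and fitted over whole tables with edgeR 4.0.16 (TMM, filterByExpr with minimum count 10 and minimum total 15, quasi-likelihood F test, two-sided), with 1 model per tissue over 3 groups, and 1 model over 6 groups between tissues. A Benjamini-Hochberg adjusted p under 0.05 over all tested genes was called. All 8 genes passed the count filter in these fits. CPM were taken on TMM-scaled totals, and log2 CPM used a prior count of 2. Alternatives were RLE scaling, 2 other filters (1 CPM in 7 libraries, or none beyond 1 count), DESeq2 1.42.0, limma 3.58.1 voom with sample weights, summed transcript counts, only the groups compared, a replicate block, and each library left out. A fit without 5 libraries was added after the data were seen. Fits were tested on simulated data.

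Gene spans and transcripts come from the GRCm38 annotation, and no member overlapped another gene. The members, lists and tests were chosen with earlier results of these data known. The naming rule took all 8 members everywhere, called relatives in tested comparisons, at most 3 per list in PFC PICK1i against saline, and the 2 genes most like each member. The result of 1 relative is not reported here. Each value's precision is set by the number of libraries and, for Maff, by its few counts.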

Additional observations from a re-analysis of the deposited data

Results flagged for a closer look

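In 7 of 48 checks (8 genes in 6 groups), the highest or lowest library was far from the rest of its group, with a gap to the nearest library larger than Dixon's 95% limit for the group's range; chance gives about 1 in 20. Of these, 3 come from the library labelled hippocampus PICK1i replicate 7, which had thalamic markers: Trib1 at 29.1 CPM (nearest 17.5), Btg2 at 9.74 CPM (nearest 16.1) and Klf10 at 5.63 CPM (nearest 29.6). In PFC, Trib1 was at 46.3 CPM in PICK1i replicate 7 (nearest 33.7), Btg2 at 18.6 CPM in saline replicate 8 (nearest 12.3) and Klf4 at 15.5 CPM in PSD-95i replicate 7 (nearest 11.2). In hippocampus, Midn was at 46.5 CPM in saline replicate 6 (nearest 36.4).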

How the results depend on the processing

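The 6 calls between tissues in PSD-95i libraries stayed at 6 under all 9 other settings and without each library, and no member passed in PSD-95i against saline or within hippocampus under any of them. For the PICK1i effect across tissues, members with an adjusted p under 0.05 went from 0 to 1 (Midn) with limma voom, without hippocampus PICK1i replicate 2, and without the 5 libraries. Genes passing in PFC PICK1i against saline were 30, 46 with DESeq2 and 19 to 35 with 1 library left out (19 without PFC saline replicate 2). PSD-95i against PICK1i in PFC gave 50, 99 with DESeq2, 80 with the replicate block and 36 to 83 with 1 library left out (83 without PFC PSD-95i replicate 6). For PSD-95i against saline in PFC, 0 became 2 with DESeq2 and without PFC saline replicate 4. The PICK1i effect gave 1, 2 with DESeq2, 9 with limma voom and without the 5 libraries, 0 without a filter or with only the groups compared, and 0 to 8 with 1 library left out (8 without hippocampus PICK1i replicate 2).

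Values near 0 changed sign, and the cause was not tested. In hippocampus PSD-95i against PICK1i, limma voom gave Trib1 0.023, Ier2 0.032, Ier5 -0.089 and Btg2 -0.018, and the fit without the 5 libraries gave Trib1 0.059, Ier2 0.096, Klf4 0.012 and Btg2 -0.048. In PFC PSD-95i against saline, Maff was -0.040 without the 5 libraries. With 1 library left out, ranges that crossed 0 were Btg2 -0.098 to 0.14 and Maff -0.038 to 0.27 in PFC PSD-95i against saline, Btg2 -0.031 to 0.13 in hippocampus PICK1i against saline, Midn -0.072 to 0.034 in hippocampus PSD-95i against saline, Trib1 -0.22 to 0.0058, Ier5 -0.10 to 0.16 and Btg2 -0.017 to 0.12 in hippocampus PSD-95i against PICK1i, and Klf4 -0.15 to 0.050 and Btg2 -0.021 to 0.21 for the PSD-95i effect across tissues.

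Replicate numbers showed no clear pairing of treatments within a tissue. Same-numbered libraries there correlated at -0.28 to 0.41 over 46 pairs, 15 of them above 0.1. In 9 of 92 comparisons the best match had the same number. This check cannot show whether PFC and hippocampus libraries share animals. Across tissues, same-numbered libraries of the same treatment correlated at -0.065 to 0.25, and the fits between tissues took all libraries as independent. With the replicate block, Btg2 in PFC PSD-95i against saline was 0.0072 in place of -0.027, and Klf10 in PFC PICK1i against saline was 0.61 and passed. With only the groups compared, Maff fell below the count filter in 3 comparisons and has no value there, and in PFC PSD-95i against PICK1i 2 members passed in place of 3. Few counts limit Maff most, at 1 to 10 per hippocampal saline library.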
